A study of Drosophila melanogaster with 12 samples.

Results

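Glutathione S-transferases and UDP-glycosyltransferases are the main conjugating enzymes of the fruit fly Drosophila melanogaster, and their genes were measured here in single heads by RNA sequencing. The members are the genes whose FlyBase symbol begins with Gst, a class letter (D, E, S, T, O or Z) and a digit, or with Ugt and a digit. This rule uses names alone and no measured value. It found 70 of the 17895 gene entries, 35 of them Gst and 35 Ugt, and all 70 are annotated as protein-coding. The Gst genes comprise 11 of the delta class (GstD), 14 of epsilon (GstE), 3 of omega (GstO), 1 of sigma (GstS), 4 of theta (GstT) and 2 of zeta (GstZ). The largest Ugt subfamilies are Ugt37 with 8 genes, Ugt35 with 6, and Ugt36 and Ugt303 with 4 each. After a filter on low counts 67 members were tested. GstD6, GstD7 and Ugt49B2 were not, since they had 1 to 11, 0 to 9 and 4 to 18 counts per library.

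All flies were females aged 21 days, written as verging in the labels and taken here as virgin, and labelled either SIRT6 KO or w1118, a white-eyed laboratory strain. From eclosion their food held either DMSO, the solvent, or 100 µM of 680C91. The compound inhibits TDO2, the enzyme that opens the ring of tryptophan. Each of the 4 groups (KO with DMSO, KO with inhibitor, w1118 with DMSO, w1118 with inhibitor) has 3 libraries, each from the head of 1 fly. The nature of the KO allele and the background it was crossed into are not given in the sources used here, so genotype and background cannot be told apart.

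A glutathione S-transferase joins the tripeptide glutathione to a reactive compound, such as an oxidised lipid, an insecticide or a plant toxin. A UDP-glycosyltransferase adds a sugar from a UDP-sugar, in insects usually glucose, and makes the product more soluble and easier to excrete. In flies both families lie largely in tandem arrays of duplicated genes, and many members respond to oxidative stress or to foreign compounds through the transcription factor CncC, held back by Keap1. Fat body, the insect counterpart of the liver, is a main site of such detoxification and is also present in the head.

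Libraries held 24633705 to 44545859 estimated counts, and the members took 0.11 to 0.153% of the counts in genes. Sirt6 itself had 2.14 CPM ± 0.224 under the KO label and 2.20 CPM ± 0.526 for w1118 (SD, n = 6 each). Its averaged log2 difference was -0.01 (SE 0.13, edgeR adjusted p = 0.971), but the foods differed in direction. With DMSO it was -0.33 (SE 0.18, edgeR adjusted p = 0.357), with all libraries labelled KO below those of w1118. With inhibitor it was 0.31 (SE 0.18, edgeR adjusted p = 0.388), with all libraries labelled KO above. None of these passed, so the KO label is not borne out by this gene's level, and groups are named by label throughout. Replicate 2 of both w1118 groups stood apart. Yolk protein genes, made by fat body, took 0.429% of gene counts in replicate 2 with DMSO and 1.93% in replicate 2 with inhibitor, against 18.6 to 21.8% in the other w1118 libraries and 9.97 to 13.7% in those labelled KO. Counts of members that passed between genotypes are given with and without these libraries, and so are the effects of some members. Markers of neurons, glia, photoreceptors and muscle were above 1 CPM in all libraries. Of 5 antenna markers, Obp83b and Os-C were under 1 CPM everywhere. All 5 antenna markers together summed to 4.64 to 11.4 CPM under the KO label and 3.99 to 6.40 CPM in w1118. Of 11 midgut markers 9 were under 1 CPM everywhere. Some other marker sums had different but overlapping ranges between genotypes, and single markers of a list did not all go the same way. The 4 neuron markers summed to 1582 to 1835 CPM under the KO label and 1140 to 1823 CPM in w1118, where only replicate 2 with DMSO was above 1461. The 3 haemocyte markers summed to 155.6 to 323.3 and 295.8 to 843.5 CPM, and the 4 muscle markers to 865.6 to 1174 and 332.3 to 966.9 CPM. Photoreceptor and glia markers overlapped more widely, at 17006 to 23393 and 14456 to 25028 CPM, and at 814.0 to 919.7 and 677.4 to 1350 CPM. Their part in the genotype effects below was not tested.

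The unit CPM is a count relative to the library's total after scaling by the trimmed mean of M-values. To compare genes they were divided by the length of the annotated exons. On that scale GstD1 was highest over the 12 libraries, at a mean of 246.4 CPM per kb, followed by GstE12 at 173.1 and GstE9 at 98.5. The highest Ugt genes were Ugt49B1 at 44.9 CPM per kb, Ugt49C1 at 24.6 and Ugt302C1 at 23.7. Among the smaller classes GstT4 led at 40.3 CPM per kb, GstS1 at 37.4, GstO3 at 28.4 and GstZ2 at 11.2. The first ranks are not firmly ordered, since GstD1 ranged from 127.0 to 451.2 CPM per kb over libraries and GstE12 from 112.8 to 260.4. GstE12 and GstD1 held 26.0% and 22.3% of all Gst counts, and Ugt49B1 held 19.3% of all Ugt counts.

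The first question was which members differ between the genotypes. Averaged over DMSO and inhibitor, 20 of 67 tested members passed, 12 higher and 8 lower under the KO label, which is 29.9% of them. Of all 14155 genes tested 11.1% passed, 5.33% higher and 5.78% lower. Passing means an adjusted p under 0.05 in edgeR's quasi-likelihood test, adjusted over all genes tested by the Benjamini-Hochberg method. By unadjusted p under 0.05 there were 29 members, and 26.9% of all genes. Among Gst genes 3 rose and 5 fell of 33 tested, and among Ugt genes 9 rose and 3 fell of 34. The members' median effect was -0.19 on the log2 scale, and that of all genes was -0.07. The 6 libraries labelled KO did not overlap the 6 of w1118 in 17 of the 67 tested members, or 25.4%, and in 7.76% of all genes. All 17 were among the 20 that passed. Each library is RNA of a whole head, so fewer cells of a type and less RNA per cell cannot be told apart.

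**Figure D1:**
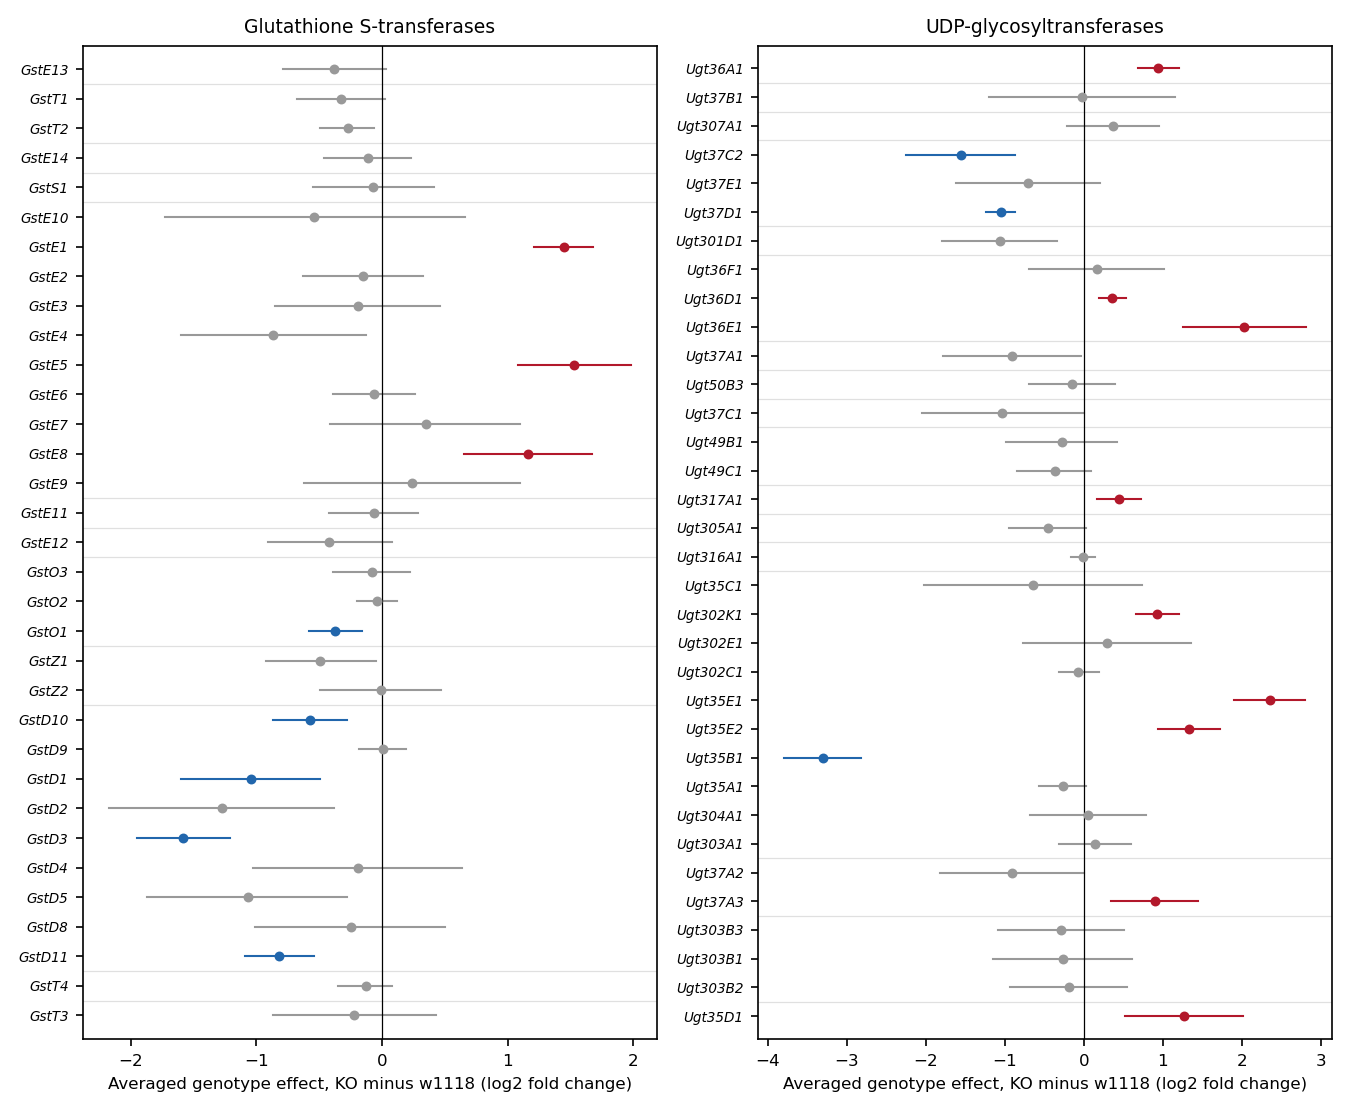
Averaged genotype effect (log2 fold change, labelled KO minus w1118, x axis) of the 67 tested members in chromosome order, Gst genes on the left and Ugt genes on the right, with 95% intervals; grey lines part genes more than 50000 bases from each other. Red points passed as higher and blue as lower, 12 and 8 genes, and Ugt35B1 at -3.30 and Ugt35E1 at 2.35 lie farthest out.

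Leaving out each library in turn, 14 of the 20 passed every time. The other 6 were GstD1, GstD10, GstO1, Ugt35D1, Ugt37A3 and Ugt317A1, and they are described below with what decided them. Without replicate 2 of both w1118 groups 30 members passed, 19 of them among the 20, while 29.1% of all genes passed. The 11 added were GstD2, GstE4, GstE12, GstT1, GstZ1, Ugt37A1, Ugt37C1, Ugt49B1, Ugt49C1 and Ugt301D1, all lower, and Ugt36F1, higher.

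**Figure D2:**
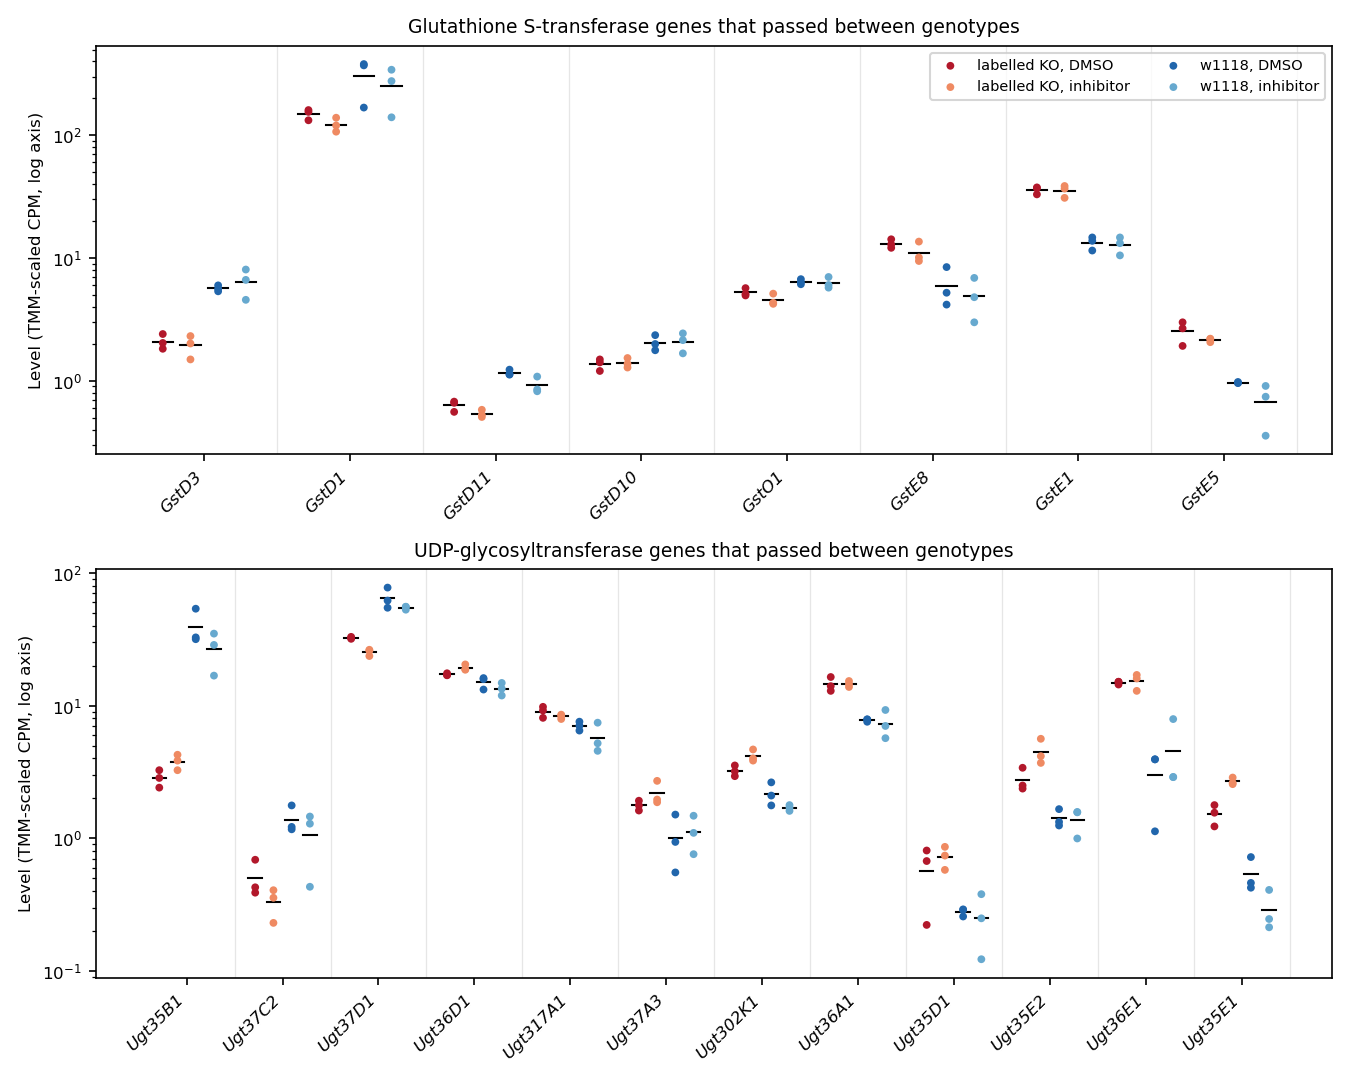
Level in each library (points, TMM-scaled CPM on a log axis) of the 20 members that passed between genotypes, by group, with a bar at each group's mean of 3; Gst genes are above and Ugt genes below, each ordered from the largest fall to the largest rise. In 17 genes all 6 points labelled KO lie on 1 side of all 6 w1118 points, and the exceptions are GstD1, Ugt37C2 and Ugt35D1.

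All 11 GstD genes lie within 20.8 kb on chromosome arm 3R, from 12364776 to 12385624 of BDGP6.54. Of the 9 tested, 4 fell under the KO label (GstD1, GstD3, GstD10 and GstD11) and none rose. Their summed level was 154.5 CPM ± 21.5 (SD, n = 6) under the KO label and 305.4 CPM ± 105.5 (SD, n = 6) in w1118, with overlapping ranges of 124.6 to 180.0 and 161.8 to 405.6 CPM. GstD1 alone made up 135.7 and 279.7 CPM of these means, so the sum mainly restates that gene.

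GstD3 (3R, 12373068 to 12373813, plus strand) showed the largest fall of the class. It measured 2.03, 2.40 and 1.82 CPM under the KO label with DMSO and 2.31, 2.01 and 1.49 CPM with inhibitor. The w1118 libraries had 5.61, 5.35 and 5.98 CPM with DMSO and 6.63, 4.56 and 8.05 CPM with inhibitor. All w1118 libraries were above all others, replicate 2 included. The averaged effect was -1.58 on the log2 scale (SE 0.17, edgeR adjusted p = 0.000258), a level 2.99-fold lower. GstD11 (3R, 12383336 to 12385624, plus strand), at the far end of the array, was low but also without overlap, at 0.506 to 0.675 CPM under the KO label and 0.820 to 1.23 CPM in w1118. Its averaged effect was -0.82 (SE 0.12, edgeR adjusted p = 0.00247).

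GstD1 (3R, 12367817 to 12369268, minus strand) can detoxify the insecticide DDT and is widely used as a reporter of oxidative stress. It measured 155.2, 132.5 and 160.5 CPM under the KO label with DMSO and 139.0, 120.2 and 107.0 CPM with inhibitor. Those of w1118 had 380.4, 168.2 and 371.2 CPM with DMSO and 276.5, 140.1 and 342.1 CPM with inhibitor. Replicate 2 of each w1118 group was close to or within the KO range, and the other 4 w1118 libraries were far above it. GstD1 was 2.06-fold lower under the KO label (log2 -1.04, SE 0.25, edgeR adjusted p = 0.0254). The call was lost when any of 10 libraries was left out, with an adjusted p of 0.0539 to 0.0774, and was kept without either replicate 2 of w1118. Without both, the effect was -1.26 with an adjusted p of 8.62e-05. The same 2 libraries had the lowest yolk protein shares, and summed fat body markers other than yolk proteins were 547.2 and 5886 CPM in them, 12493 to 24177 CPM in the other w1118 libraries and 7509 to 21811 CPM under the KO label. The part of fat body in the GstD1 result was not tested.

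GstD10 (3R, 12364776 to 12365735, minus strand), the first gene of the array, ranged from 1.20 to 1.53 CPM under the KO label and from 1.67 to 2.43 CPM in w1118. Its effect was -0.57 (SE 0.13, edgeR adjusted p = 0.0213), lost when any of 9 libraries was left out, with an adjusted p of 0.0549 to 0.075. GstD9, its neighbour, stood at 12.8 CPM ± 1.29 and 12.8 CPM ± 2.14 (SD, n = 6 each), with an effect of 0.01 (95% interval -0.18 to 0.19). GstD2 and GstD5 had effects of -1.27 and -1.07 that did not pass (edgeR adjusted p = 0.0718 and 0.0863). In GstD2 a single w1118 library, replicate 3 with inhibitor, reached 6.20 CPM while the other w1118 libraries had 0.744 to 1.46. GstD4 and GstD8 averaged 0.286 and 0.519 CPM over all libraries, with intervals of -1.03 to 0.64 and -1.01 to 0.50.

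The epsilon class went the other way in part. Of its 14 genes 10 lie within 13.2 kb on 2R, from 18396638 to 18409835, and GstE11, GstE12, GstE13 and GstE14 lie elsewhere on that arm. All 14 were tested, 3 rose under the KO label (GstE1, GstE5 and GstE8) and none fell. The 3 are not neighbours, since GstE2, GstE3 and GstE4 lie between GstE1 and GstE5, and GstE6 and GstE7 between GstE5 and GstE8. Summed, the 3 ranged from 43.1 to 54.5 CPM under the KO label and from 13.8 to 24.1 CPM in w1118.

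GstE1 (2R, 18398393 to 18399223, plus strand) measured 37.6, 33.0 and 37.0 CPM under the KO label with DMSO and 38.6, 36.8 and 30.9 CPM with inhibitor. In w1118 it measured 14.7, 13.8 and 11.5 CPM with DMSO and 13.2, 10.5 and 14.7 CPM with inhibitor. The lowest library labelled KO was thus far above the highest of w1118, and within a genotype the treatments overlapped. GstE1 was 2.73-fold higher (log2 1.45, SE 0.11, edgeR adjusted p = 2.6e-05). Its exons share 20 bases with GstE10 on the other strand, and GstE10 averaged 0.337 CPM over all libraries.

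GstE5 (2R, 18404605 to 18405338, plus strand) measured 2.67, 1.92 and 2.99 CPM under the KO label with DMSO and 2.18, 2.06 and 2.20 CPM with inhibitor. The w1118 libraries had 0.976, 0.960 and 0.956 CPM with DMSO and 0.906, 0.356 and 0.740 CPM with inhibitor. The groups did not overlap by genotype, and the averaged effect was 1.53 (SE 0.20, edgeR adjusted p = 0.00114). GstE8 (2R, 18407834 to 18408955, plus strand) ranged from 9.45 to 14.2 CPM under the KO label and from 2.99 to 8.43 CPM in w1118, with an effect of 1.16 (SE 0.23, edgeR adjusted p = 0.0106).

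Of the other epsilon genes none passed. GstE9, next to GstE8 and the highest of the array, had 83.8 CPM ± 10.9 under the KO label and 71.4 CPM ± 37.4 in w1118 (SD, n = 6 each). Among w1118 libraries the low ones were replicate 2, with 15.8 CPM with DMSO and 42.4 CPM with inhibitor against 71.3 to 120.9 CPM in the other w1118 libraries. GstE12 (2R, 24766718 to 24768172, minus strand) had 207.5 CPM ± 20.7 under the KO label and 276.6 CPM ± 89.9 in w1118 (SD, n = 6 each; log2 -0.42, SE 0.22, edgeR adjusted p = 0.26). Without replicate 2 of both w1118 groups its effect was -0.60 with an adjusted p of 0.00308. GstE4 had an effect of -0.87 (edgeR adjusted p = 0.125). The other 8 epsilon genes had effects between -0.54 for GstE10 and 0.35 for GstE7.

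**Figure D3:**
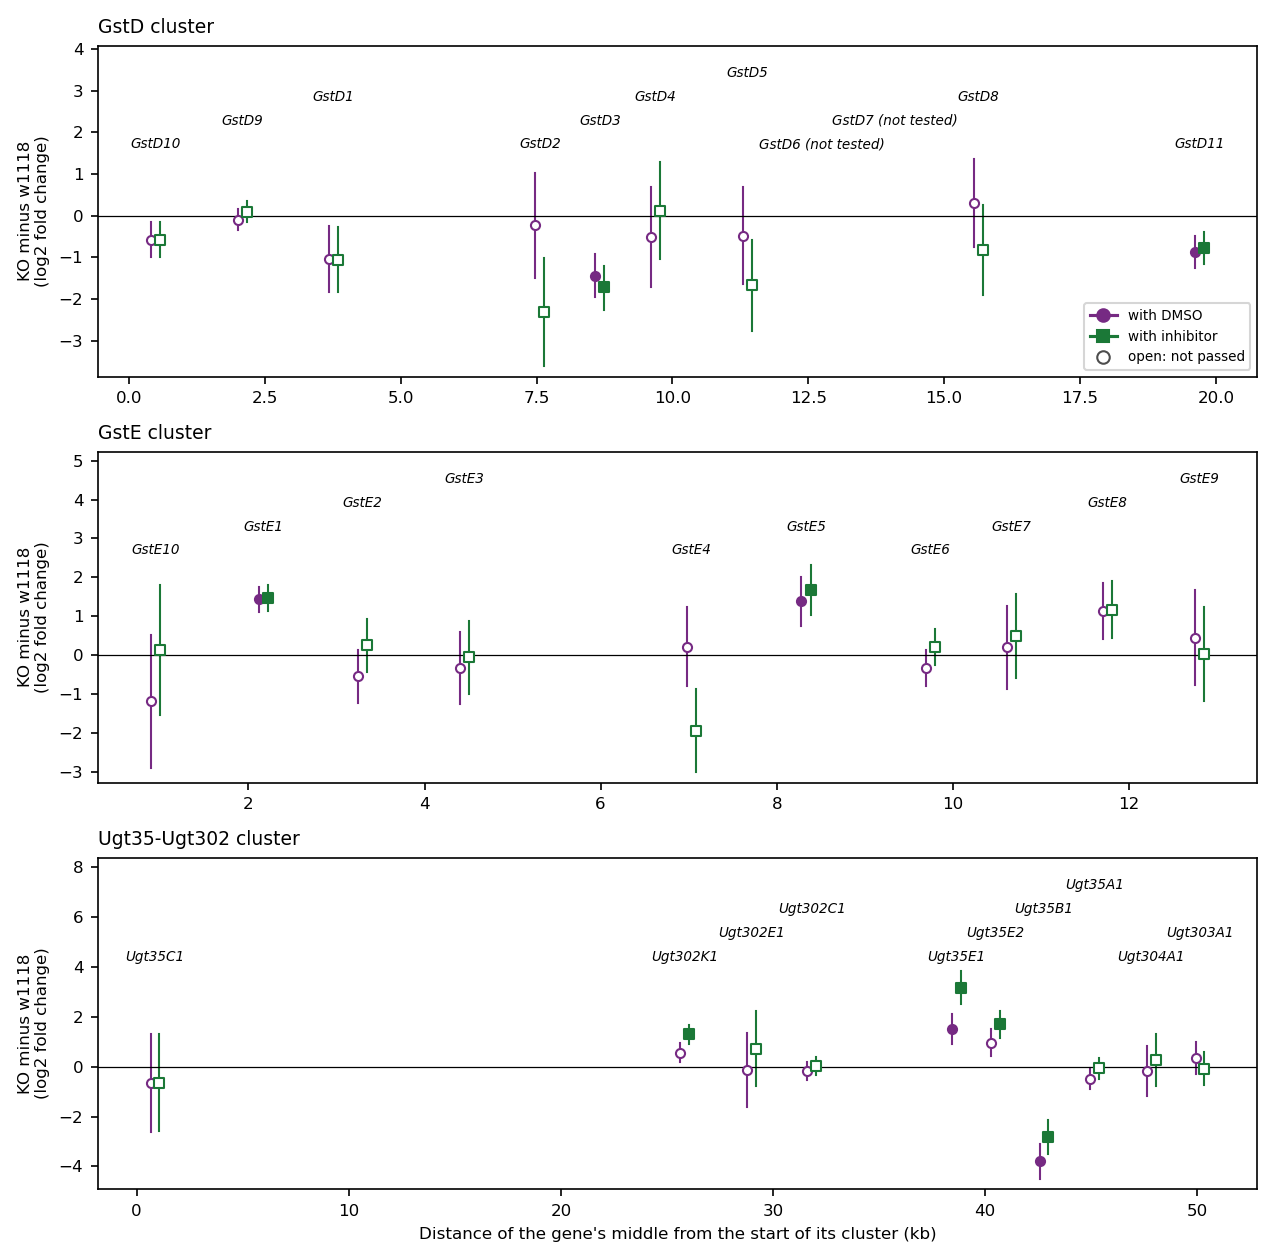
Genotype effect (log2 fold change, labelled KO minus w1118, with 95% intervals) of the genes in the 3 largest arrays, plotted by the distance of each gene's middle from the start of its array in kb, with DMSO (circles) and with inhibitor (squares); filled points passed. In the GstD array the filled points, GstD3 and GstD11, lie below 0, in the GstE array GstE1 and GstE5 lie above 0, and in the Ugt35-Ugt302 array Ugt35B1 lies far below 0 beside Ugt35E1 and Ugt35E2 above it.

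In the remaining classes 1 of 10 genes passed. GstO1, of the omega class, was 4.90 CPM ± 0.547 under the KO label and 6.32 CPM ± 0.471 in w1118 (SD, n = 6 each; log2 -0.37, SE 0.09, edgeR adjusted p = 0.0309). Leaving out any of the 12 libraries ended this call, with an adjusted p of 0.0589 to 0.135, so it rests on the full set alone. Its neighbours GstO2 and GstO3 had effects of -0.04 (95% interval -0.20 to 0.12) and -0.08 (-0.39 to 0.22). GstS1, the only sigma gene, conjugates products of lipid peroxidation, and it had an effect of -0.07 (95% interval -0.55 to 0.41). GstT4, the highest theta gene, had -0.13 (-0.35 to 0.08). GstZ2 belongs to the zeta class, whose human member takes part in tyrosine breakdown, and had -0.01 (-0.49 to 0.47). GstT1, GstT2, GstT3 and GstZ1 had effects of -0.33, -0.27, -0.22 and -0.49.

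Among the UDP-glycosyltransferases the largest differences lay in 1 array on 3R, from 11126597 to 11177910, where 10 genes of the Ugt35, Ugt302, Ugt303 and Ugt304 subfamilies span 51.3 kb. Ugt35E1, Ugt35E2 and Ugt302K1 rose under the KO label, Ugt35B1 fell, and the other 6 did not pass. Ugt35E1, Ugt35E2 and Ugt35B1 are direct neighbours on the minus strand, in that order, and so the rise and the fall met within the array.

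Ugt35B1 (3R, 11168503 to 11170246, minus strand), a gene first described in the antenna, had the largest effect of any member. It measured 3.26, 2.85 and 2.41 CPM under the KO label with DMSO and 3.26, 3.85 and 4.26 CPM with inhibitor. The w1118 values were 32.6, 53.6 and 31.6 CPM with DMSO and 34.8, 16.8 and 28.6 CPM with inhibitor. No library came near the other genotype's range. Ugt35B1 was 9.88-fold lower under the KO label (log2 -3.30, SE 0.22, edgeR adjusted p = 1.19e-05), and the effect was -3.21 without both replicates 2 of w1118. The sum of the antenna markers was at the low levels given above in both genotypes, with overlapping ranges. Taken singly, lush did not overlap, at 0.752 to 2.45 CPM under the KO label and 0.351 to 0.723 CPM in w1118, and the other antenna markers did. The part of the antenna in the Ugt35B1 result was not tested.

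Ugt35E1 (3R, 11164423 to 11166074, minus strand) was a low gene that stood out in the opposite sense. It measured 1.56, 1.23 and 1.78 CPM under the KO label with DMSO and 2.62, 2.87 and 2.56 CPM with inhibitor. In w1118 it measured 0.723, 0.462 and 0.425 CPM with DMSO and 0.409, 0.214 and 0.247 CPM with inhibitor. The genotypes did not overlap, and the averaged effect was 2.35 (SE 0.20, edgeR adjusted p = 7e-05), or 5.10-fold. Ugt35E2 (3R, 11166177 to 11167981, minus strand), between the other 2, measured 2.37 to 5.62 CPM under the KO label and 0.998 to 1.66 CPM in w1118, with an effect of 1.33 (SE 0.18, edgeR adjusted p = 0.00107).

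How reads were divided among neighbouring genes of a subfamily is not given in the sources used here. Their sequences were not compared, so how far this makes single values of neighbouring paralogs uncertain is not known. Added up, Ugt35B1, Ugt35E1 and Ugt35E2 stood at 9.04 CPM ± 2.37 under the KO label and 34.8 CPM ± 12.1 in w1118 (SD, n = 6 each), and the highest sum labelled KO, 12.4 CPM, was below the lowest of w1118, 18.0 CPM.

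Ugt302K1 (3R, 11151026 to 11153849, minus strand) ranged from 2.94 to 4.67 CPM under the KO label and from 1.61 to 2.64 CPM in w1118, with an effect of 0.93 (SE 0.12, edgeR adjusted p = 0.00094). Ugt302C1, the highest gene of the array, did not pass, with 46.0 CPM ± 5.91 and 48.6 CPM ± 11.0 (SD, n = 6 each) and a 95% interval of -0.32 to 0.19. Ugt35A1, next to Ugt35B1, had an effect of -0.27 (edgeR adjusted p = 0.232). Ugt35C1, at the other end, varied widely among w1118 libraries, with an SD of 17.1 CPM around a mean of 20.3 CPM. Ugt35D1, far away on 3R from 31393582 to 31395304, rose by 1.27 (SE 0.34, edgeR adjusted p = 0.0382) from 0.265 to 0.649 CPM. Its ranges overlapped through replicate 1 labelled KO with DMSO at 0.223 CPM, and the call was lost when any of 8 libraries was left out (adjusted p of 0.0516 to 0.0849).

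The Ugt36 subfamily rose in 3 of 4 genes, and its summed level was 56.2 CPM ± 3.01 under the KO label and 33.2 CPM ± 6.92 in w1118 (SD, n = 6 each). Ugt36E1 (2L, 18826770 to 18829059, plus strand) measured 15.1, 14.4 and 15.1 CPM under the KO label with DMSO and 17.0, 16.0 and 12.9 CPM with inhibitor. In w1118 it measured 3.94, 1.13 and 3.93 CPM with DMSO and 2.89, 7.91 and 2.90 CPM with inhibitor. The genotypes stayed apart, but replicate 2 was the lowest w1118 library with DMSO and the highest with inhibitor. The averaged effect was 2.03 (SE 0.35, edgeR adjusted p = 0.00527), and without both replicates 2 of w1118 it was 2.23 with an adjusted p of 5.65e-06.

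Ugt36A1 (2L, 3619097 to 3621573, plus strand) lies apart from the others of its subfamily and measured 12.9 to 16.4 CPM under the KO label and 5.68 to 9.26 CPM in w1118. Its effect was 0.94 (SE 0.12, edgeR adjusted p = 0.000848), but 17.4% of its exonic bases overlap CG15418 on the other strand, and whether counting used strand is not given. Ugt36D1 (2L, 18823548 to 18826716, plus strand), just before Ugt36E1, had 18.2 CPM ± 1.34 and 14.2 CPM ± 1.65 (SD, n = 6 each), an effect of only 0.36 (SE 0.08, edgeR adjusted p = 0.0161). Ugt36F1 did not pass, and in w1118 with inhibitor its replicate 2 had 19.4 CPM while replicates 1 and 3 had 4.73 and 3.49. Without both replicates 2 of w1118 its effect was 0.93 (edgeR adjusted p = 0.00493).

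The Ugt37 subfamily as a sum was lower under the KO label, at 39.0 CPM ± 5.66 against 71.4 CPM ± 7.25 in w1118 (SD, n = 6 each), and Ugt37D1 made up most of it. Ugt37D1 (2L, 16799025 to 16801584, plus strand) measured 32.3, 31.8 and 32.9 CPM under the KO label with DMSO and 25.9, 26.3 and 23.6 CPM with inhibitor. Values of w1118 were 61.7, 77.3 and 54.5 CPM with DMSO and 52.7, 55.3 and 55.5 CPM with inhibitor. Every w1118 library was far above every library labelled KO. The gene was 2.07-fold lower under the KO label (log2 -1.05, SE 0.08, edgeR adjusted p = 4.6e-05).

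Ugt37C2 (2L, 16794211 to 16796009, plus strand), in the same array of 3, ranged from 0.231 to 0.690 CPM under the KO label and from 0.432 to 1.77 CPM in w1118, where only replicate 3 with inhibitor fell into the KO range. Its effect was -1.56 (SE 0.31, edgeR adjusted p = 0.0108). Ugt37A3 (3R, 12741958 to 12743680, minus strand) went the other way, with 1.98 CPM ± 0.379 and 1.06 CPM ± 0.386 (SD, n = 6 each; log2 0.90, SE 0.25, edgeR adjusted p = 0.0467). Ugt317A1 (2R, 22641786 to 22643917, minus strand) rose by 0.44 (SE 0.12, edgeR adjusted p = 0.0469). Both calls were lost when any of 9 libraries was left out, with adjusted p-values of 0.0565 to 0.0907 for Ugt37A3 and 0.0521 to 0.0898 for Ugt317A1.

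The most abundant Ugt genes did not pass with all libraries. Ugt49B1 stood at 70.7 CPM ± 9.76 under the KO label and 86.7 CPM ± 35.7 in w1118 (SD, n = 6 each), with an effect of -0.28 (95% interval -0.98 to 0.42). In w1118 with DMSO its replicate 2 had 23.0 CPM, while replicates 1 and 3 had 91.3 and 107.8. Without both replicates 2 of w1118 the effect was -0.50 with an adjusted p of 0.014. Ugt49C1, its neighbour, had -0.37 (edgeR adjusted p = 0.283), and -0.54 with an adjusted p of 0.000805 without these libraries. Ugt316A1 had an effect of -0.01 with a 95% interval of -0.16 to 0.14. Ugt301D1 (2L, 18509560 to 18513512) had the pattern of GstD1, with 15.1 to 22.9 CPM under the KO label, 13.1 and 18.9 CPM in w1118 replicate 2 with DMSO and inhibitor, and 40.4 to 53.8 CPM in the other w1118 libraries. Its effect was -1.06 (edgeR adjusted p = 0.0648), and -1.33 with an adjusted p of 0.000129 without these replicates. Among the rest, Ugt303A1, Ugt303B1, Ugt303B2, Ugt303B3, Ugt304A1, Ugt305A1, Ugt307A1 and Ugt50B3 had effects from -0.46 to 0.37, and none passed. Ugt37A1, Ugt37A2, Ugt37C1 and Ugt37E1 had effects of -0.91, -0.91, -1.03 and -0.71 with wide intervals, such as -1.82 to -0.00 for Ugt37A2, and did not pass either. Without both replicates 2 of w1118, Ugt37A1 had -1.21 (edgeR adjusted p = 0.0039) and Ugt37C1 -1.36 (edgeR adjusted p = 0.00466).

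**Figure D4:**
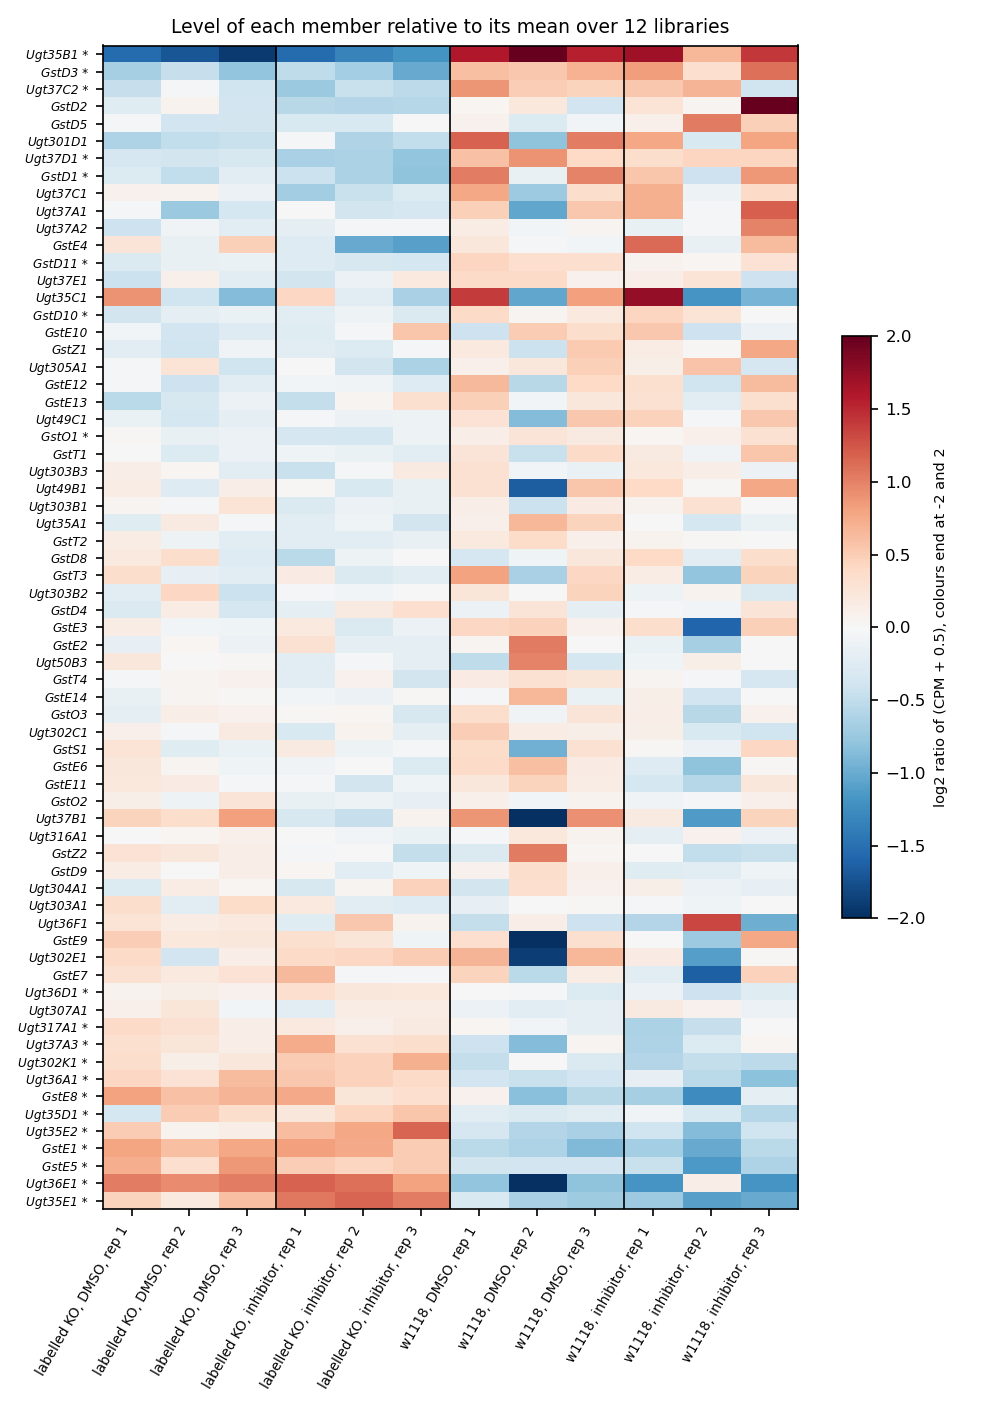
Level of each tested member (y axis, ordered from the largest fall to the largest rise, * for those that passed) in each of the 12 libraries (x axis), as the log2 ratio of CPM plus 0.5 to the member's own mean, with colours ending at -2 and 2. The top and bottom lines split by genotype, and replicate 2 of the w1118 groups departs from its group in GstE9, Ugt302E1 and Ugt37B1, among others.

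Of the 67 members 8 were at or below 0.5 of the mean of the other 2 libraries in replicate 2 of both w1118 groups, after adding 0.5 CPM to each level, which is 11.9% of members and, over all genes, 2.22%. They were GstD1, GstE9, GstT3, Ugt301D1, Ugt302E1, Ugt35C1, Ugt37A1 and Ugt37B1. No member was at 2 or more times that mean in both, and 0.198% of all genes were. These ratios depend on the scaling factors. They were 0.7863 to 0.8867 in the other w1118 libraries, and 1.373 and 1.177 in replicate 2 with DMSO and with inhibitor. These replicates also had the lowest fat body marker sums, and the part of that in the 8 members was not tested.

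Added over all 70 genes, the members stood at 1191 CPM ± 90.6 under the KO label and 1486 CPM ± 328.4 in w1118 (SD, n = 6 each), and the ranges, 1067 to 1318 and 1044 to 1802 CPM, overlapped. The Gst sum was 828.4 CPM ± 69.6 and 1033 CPM ± 268.1, and without GstD1 and GstE12 it was 485.1 CPM ± 39.2 and 476.7 CPM ± 79.5 (SD, n = 6 each). The Ugt sum was 363.1 CPM ± 21.7 and 453.1 CPM ± 64.9 (SD, n = 6 each).

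The second question was whether the genotype effects held with each food. With DMSO 9 of 67 members passed, 5 higher and 4 lower, where 4.1% of all genes passed, 2.06% higher and 2.05% lower. The 3 libraries of 1 genotype did not overlap the 3 of the other in 24 members, or 35.8%, and in 24.1% of all genes. With inhibitor 11 passed, 7 higher and 4 lower, where 3.41% of all genes did, 1.95% higher and 1.46% lower. Here 30 members, or 44.8%, and 27.7% of all genes did not overlap. Both comparisons called GstD3, GstD11, GstE1, GstE5, Ugt35B1, Ugt35E1, Ugt36A1 and Ugt37D1, 8 genes, and 2.2% of all genes were called in both. These comparisons share no library, but both use the spread estimated from all 12 libraries, so their calls are not independent. Over all 67 members, 44 had the same sign with both foods. The share of all genes with the same sign is not given here, so this count cannot be set against it.

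The sizes were close in most of the 8. GstE1 had 1.43 (SE 0.15) with DMSO and 1.47 (SE 0.15) with inhibitor. Ugt37D1 had -0.99 (SE 0.12) and -1.11 (SE 0.12). The Ugt35 genes were farther apart, Ugt35B1 at -3.79 (SE 0.31) and -2.82 (SE 0.30), and Ugt35E1 at 1.52 (SE 0.27) and 3.18 (SE 0.29). Ugt36E1 passed with DMSO (log2 2.31, SE 0.50, edgeR adjusted p = 0.0316) and missed with inhibitor (1.74, SE 0.49, edgeR adjusted p = 0.0906). Ugt35E2, Ugt302K1 and Ugt36D1 passed with inhibitor, at 1.70, 1.30 and 0.53, and not with DMSO, at 0.96, 0.57 and 0.19. A pass in 1 food alone does not show a difference between foods, and the interaction, given below, called none.

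Many of these calls were lost when a library was left out, mostly with any of several libraries. Ugt36E1 with DMSO lost its call in 6 of 12 cases, GstD11 in 5, GstE5 in 4 and Ugt35E1 in 2. GstD3 and Ugt36A1 with DMSO lost it only without replicate 3 labelled KO with DMSO. The losses of GstD11 with inhibitor include libraries with DMSO, which are not in that comparison, so they do not point to a given library. With DMSO, 3 of the 9 remained without replicate 3 labelled KO, and Ugt35E1, GstE5, GstD3, GstD11, Ugt36E1 and Ugt36A1 each lost the call without it, at adjusted p-values of up to 0.0601, 0.0918, 0.0601, 0.113, 0.0864 and 0.0621 over the libraries that ended it. With inhibitor, GstD11 lost its call in 11 of 12 cases (adjusted p of 0.0696 to 0.243) and Ugt36D1 in 4 (0.0582 to 0.102), among them each library labelled KO with inhibitor. GstE1, Ugt35B1 and Ugt37D1 passed with both foods whichever library was left out.

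**Figure D5:**
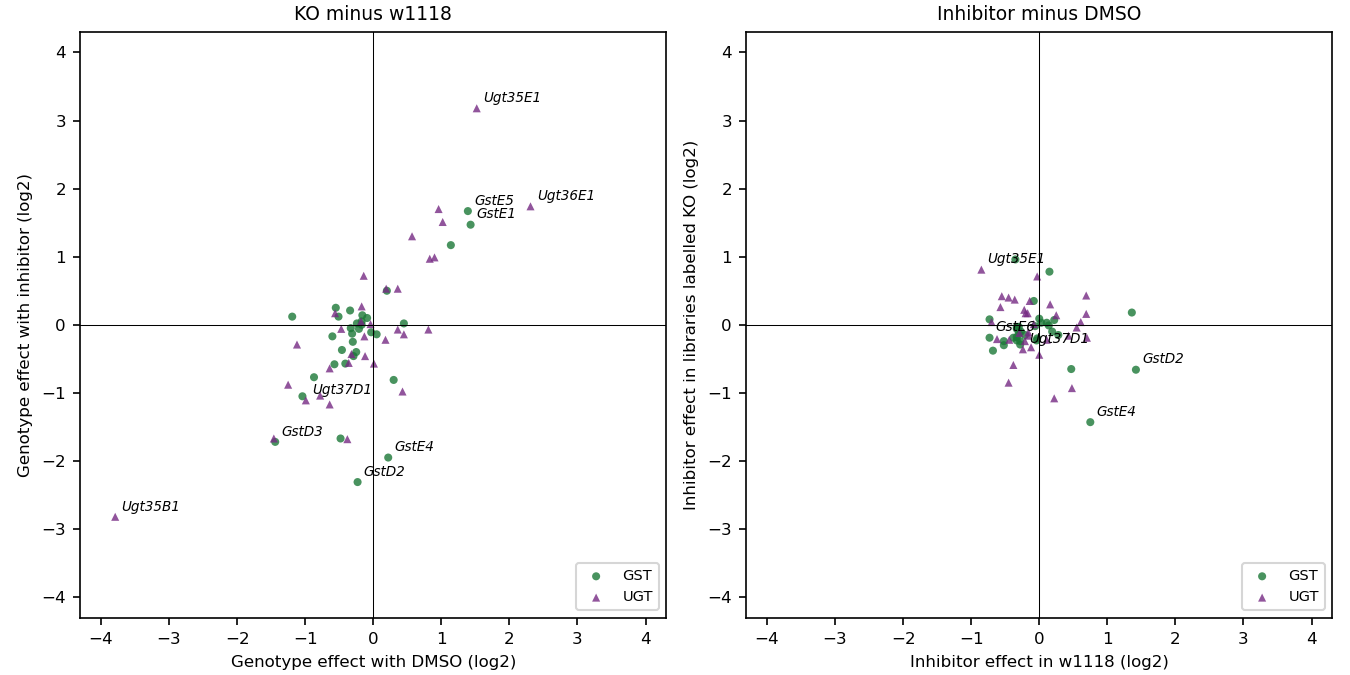
Left, genotype effect (log2, labelled KO minus w1118) with DMSO on the x axis and with inhibitor on the y axis for the 67 tested members, circles for Gst and triangles for Ugt; right, inhibitor effect (log2, inhibitor minus DMSO) in w1118 on the x axis and under the KO label on the y axis, on the same scale. Genotype effects reach from -3.79 to 3.18, and the inhibitor effects from -1.43 to 1.42.

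The third question was what the inhibitor did to these genes. No member passed under the KO label, in w1118, averaged over genotypes, or in the interaction by edgeR, and 0.00706%, 0%, 0.00706% and 0% of all genes passed in these 4 comparisons. By unadjusted p under 0.05 there were 5, 10, 8 and 5 members of 67, or 7.46, 14.9, 11.9 and 7.46%, against 3.69, 7.39, 5.31 and 4.84% of all genes. The members' median effect was -0.10 under the KO label and -0.16 in w1118, and the median over all genes was -0.01 in both. Effects ranged from -1.43 to 0.96 under the KO label and from -0.85 to 1.42 in w1118, and the members' median SE was 0.31 in each.

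Libraries with inhibitor did not overlap those with DMSO in 15 members under the KO label, 7 above and 8 below, where 13% of all genes were so separated. In w1118 they did not overlap in 10 members, 1 above and 9 below, where 7.91% of all genes did so.

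The members with the smallest unadjusted p were GstE6, Ugt37D1 and Ugt35E1. GstE6, in the GstE array, measured 24.8, 28.9 and 21.2 CPM in w1118 with DMSO and 15.6, 10.6 and 19.2 CPM with inhibitor. All 3 inhibitor libraries were below the 3 with DMSO, with an effect of -0.73 (SE 0.20, edgeR adjusted p = 0.555), and without both replicates 2 it was -0.39. Under the KO label GstE6 had 19.8 CPM ± 2.29 with DMSO and 17.4 CPM ± 1.84 with inhibitor (SD, n = 3 each). Ugt37D1 was lowest in p when averaged over genotypes, at -0.30 (SE 0.08, edgeR adjusted p = 0.892), and its 3 inhibitor libraries labelled KO, given above, were below the 3 with DMSO.

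Ugt35E1 had the smallest p under the KO label and in the interaction. The inhibitor effect was 0.81 under the KO label (SE 0.26, edgeR adjusted p = 1) and -0.85 in w1118 (SE 0.30, edgeR adjusted p = 0.59). The difference between these was 1.67 (SE 0.39, edgeR adjusted p = 0.972) and did not pass. Its counts were 41 to 79 with DMSO and 86 to 120 with inhibitor under the KO label, and 16 to 25 and 6 to 14 in w1118.

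GstE4, picked out after its values were seen, had the lowest inhibitor effect under the KO label, -1.43 (SE 0.48). There it measured 1.67, 1.14 and 2.03 CPM with DMSO and 1.02, 0.407 and 0.357 CPM with inhibitor, without overlap. In w1118 the values were 1.63, 1.29 and 1.25 CPM with DMSO and 3.51, 1.14 and 2.31 CPM with inhibitor, which overlapped. The interaction of -2.17 (SE 0.66, edgeR adjusted p = 0.972) did not pass.

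Since many members share 3R with Sirt6, calls were also counted by place. Within 1 Mb of Sirt6, 4 of 12 tested members passed in the averaged comparison, and 16.7% of all 287 genes tested there did. Within 3 Mb, which takes in the GstD array, 9 of 23 members and 14.5% of all genes passed. More than 5 Mb away on 3R 1 of 4 members and 10.5% of all genes passed. On 2L, 2R, 3L and X, 5 of 11, 4 of 22, 1 of 5 and 0 of 2 members passed, against 11.4, 12.3, 10.8 and 9.31% of all genes. GstZ1 and GstZ2, closest to Sirt6 of all members at 794.7 kb for GstZ2, did not pass. The part of sequence linked to the KO allele in these counts was not tested.

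The surrounding pathway was taken as 50 genes of detoxification, of which 48 were tested. These genes were picked by hand with earlier results of these data known. Their shares and medians therefore cannot show that the pathway differs more than other genes. Averaged over foods 5 rose and 7 fell, which is 25%, where 11.1% of all genes passed, with a median effect of -0.27 against -0.07 over all genes. Of the 3 genes of CncC regulation, Keap1 fell by 0.40 (edgeR adjusted p = 0.0401), cnc had -0.14 (adjusted p = 0.626) and maf-S -0.24 (adjusted p = 0.0532). Of 10 tested genes that make or use glutathione, se, an omega class relative needed for red eye pigment, fell by 0.89 and Mgstl, a membrane-bound glutathione transferase, rose by 0.84, and Gclc, the rate-limiting enzyme of glutathione synthesis, had 0.00 (SE 0.08).

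The largest effects lay among the 14 tested phase I genes, where 3 rose and 2 fell. Most of these encode cytochrome P450 enzymes, which oxidise compounds before conjugation, and Cpr encodes the reductase that supplies them with electrons. Cyp6g1, known for DDT resistance, was 549.8 CPM ± 176.0 under the KO label and 68.1 CPM ± 18.9 in w1118 (SD, n = 6 each; log2 3.00, edgeR adjusted p = 6.46e-05). Cyp28a5 had 4.54 CPM ± 0.980 and 132.5 CPM ± 23.4 (SD, n = 6 each; log2 -4.87, edgeR adjusted p = 3.45e-07), Cyp6w1 had -4.86 and Cyp6a8 1.69. Of 11 genes that remove peroxide or superoxide, Sod3 fell by 0.58 and the others did not pass. Of 4 efflux transporters MRP rose by 0.40, and Mdr49 and Mdr50 fell by 1.07 and 0.81. Neither of 2 genes that supply UDP-sugars, sgl and UGP, passed, and none of 4 sulfotransferases did. Keap1, Mgstl, MRP, Mdr50 and Cyp6a8 passed in only 1, 5, 2, 1 and 5 of the 12 cases with 1 library left out, and the other 7 in all 12. With inhibitor against DMSO none of the 48 passed in either genotype or in the interaction.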

How the data were processed

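Total RNA of single heads was depleted of ribosomal RNA and sequenced. The authors deposited 1 table of estimated counts per feature and library, not scaled to a common depth: 60.4% of values are not whole. Per the submitters' processing notes the tools were Trim Galore 0.6.7, STAR 2.7.9a and Salmon 1.10.1 with build BDGP6, and their settings, strand included, are not given in the sources used here. Counts were rounded, the 17895 gene entries of 24278 were kept (the others held 1.77 to 5.03% of counts), and 14155 passed edgeR's filter with a minimum count of 10. Groups come from the labels, and n counts heads.

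One model of all 12 libraries with 4 group means was fitted with edgeR 4.0.16 in R 4.3.3 (TMM scaling, quasi-likelihood test, Benjamini-Hochberg adjustment over 14155 genes, threshold 0.05), after testing on simulated data. Standard errors came from the test statistic. The alternatives were DESeq2 1.42.0, voom in limma 3.58.1, other scaling and filters, a replicate block, and leaving libraries out. Positions came from the Ensembl 115 annotation of BDGP6.54 by gene identifier. A floor of 3 counts is 0.0703 to 0.126 CPM and covers counting error only. Members and lists were chosen with earlier results of these data known. Named were members that passed in any comparison, the leaders of each class per kb, those with the smallest p for the inhibitor, and the listed pathway genes with the largest effects; others were named after their values were seen.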

Additional observations from a re-analysis of the deposited data

Results flagged for a closer look

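Ugt35E1 stood out because all 3 libraries labelled KO with inhibitor were above all 3 with DMSO, while all 3 w1118 libraries with inhibitor were below all 3 with DMSO. The inhibitor effect under the KO label minus that in w1118 was 1.67 on the log2 scale (SE 0.39) with an edgeR adjusted p of 0.972, so the difference did not pass over all genes tested. Without replicate 2 of both w1118 groups it was 1.57 with an adjusted p of 0.938, and over the alternatives the adjusted p ranged from 0.101 to 1. Such opposite and non-overlapping inhibitor effects were found in 66 of 14155 genes, or 0.466%, and Ugt35E1 is the only member among them.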

How the results depend on the processing

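By the averaged genotype effect, 20 members passed, and 14 to 25 did when each library was left out in turn, 16 with a replicate block, 22 with DESeq2 and 31 with voom and sample weights (12 higher and 19 lower). With DMSO 9 passed, and 18 did with voom, 17 without replicate 2 of both w1118 groups and 3 to 13 with 1 library left out (3 without replicate 3 labelled KO, 5 without replicate 3 of w1118 with DMSO, 13 without replicate 2 of it). With inhibitor 11 passed, and 17 did with DESeq2, 20 with voom, 23 without replicate 2 of both w1118 groups and 9 to 16 with 1 library left out. The cause of these differences between tools was not tested. Shares over all genes moved as well. Without replicate 2 of both w1118 groups 18.3% of all genes passed with DMSO and 12.8% with inhibitor, against 4.1 and 3.41% with all libraries. In the averaged comparison the share was 29.1% against 11.1%. Shares of all genes under the other alternatives are not given here, so those member counts cannot be set against them. Leaving out any 1 library gave 0 to 0 members in the inhibitor comparisons and the interaction. No effect of a named member that passed changed sign under any alternative. Replicate numbers did not pair the libraries: same-numbered libraries of different groups correlated at -0.153 to 0.173, over 0.1 in 3 of 18 pairs. With the block 7 members passed with DMSO and 11 with inhibitor. Without replicate 2 of both w1118 groups the median averaged effect over all genes moved from -0.07 to 0.03. Sums over transcripts of any near-identical copies were not run, nor were promoters or proteins compared. Depth limits the lowest members: GstD4 and GstE10 had no library above 23 and 35 counts.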
